A study of Mus musculus with 16 samples.

Results

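Macrophage transcripts were followed in ECs (endothelial cells, which form the inner lining of vessels) sorted from mouse lung. The set held 38 genes that mark macrophages or are abundant in them, chosen by name, of 43346 genes in the table of read counts. All 38 were found in that table, 1 of them (Adgre1, which encodes F4/80) under an older symbol. 6 members were taken as alveolar macrophage genes (Marco, Chil3, Ear2, Krt79, Plet1 and Itgax), 6 as genes of monocyte-derived macrophages (Ccr2, Cx3cr1, Spp1, Gpnmb, Trem2 and Ms4a7), and the other 26 were grouped by the role of their product.

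The mice were of the FVB strain and carried a Col1a1-GFP transgene, a collagen reporter expressed in fibroblasts; both sexes were used. Young mice were 2 months and aged mice 18 months old, and lungs were taken 30 days after bleomycin, a drug that injures the lung and is followed by fibrosis, or after PBS (Sham). Viable cells that were CD31+ and that lacked CD45, EpCAM and GFP were sorted, so the gate was set against leukocytes, epithelium and collagen-producing cells; the study made no test of purity after the sort. The 16 libraries were 5 Young Sham (labelled 21 to 25), 4 Young Bleo (17 to 20), 3 Aged Sham (13 to 15) and 4 Aged Bleo (1, 2, 3 and 5), and values are given in that order within each group. The labels do not tie a library to a mouse, whereas the study's text describes its data points as independent animals and gives the sequenced ECs as coming from the lungs of its chromatin assay, with each point an individual mouse.

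Macrophages of the lung are of more than 1 origin. Alveolar macrophages live in the air spaces, renew themselves locally and handle surfactant, and they are recognised by Marco, Chil3, Ear2 and high Itgax (CD11c). After injury, blood monocytes that depend on the chemokine receptors Ccr2 and Cx3cr1 enter the tissue and become macrophages, and in fibrotic lung a state rich in Spp1 (osteopontin), Gpnmb and Trem2 is well known. ECs themselves make some of the transcripts listed here, since cathepsins and apolipoprotein E are not restricted to macrophages. In bulk RNA, more cells of a type and more RNA per cell cannot be told apart.

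The libraries held 20.9 to 71.0 mega-counts in genes, so 3 counts, taken here as the floor of detection, stood for at most 0.143 CPM (counts scaled to a library of 1 mega-count). Endothelial markers were high in every library: Pecam1 (CD31) lay between 66.6 and 152 FPKM (counts divided by transcript length and library size, the scale on which levels of different genes are compared here) and Cdh5 (VE-cadherin) between 67.6 and 111 FPKM. Ptprc, which encodes CD45, was at most 0.0305 FPKM among Young Sham, 0.122 among Young Bleo, 0.0528 among Aged Sham and 0.517 among Aged Bleo libraries, and its highest value was in Aged Bleo 5. Low as it was, Ptprc was called higher in Young Bleo than in Young Sham (log2 fold change 2.74 ± 0.78, DESeq2 adjusted p = 0.0059, edgeR adjusted p = 0.043). In aged mice each Bleo library was also above each Sham library, without a call (2.30 ± 0.88, adjusted p = 0.096). Its part in the members' values was not tested. The same Aged Bleo 5 library held the most T cell transcript (11.9 FPKM summed over 6 markers, 0.334 to 2.72 in the other 15). Aged Sham 14 stood apart by platelet transcript, with 3187 FPKM summed over 5 markers against 888 in Aged Sham 13 and 588 in Aged Sham 15.

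**Figure D1:**
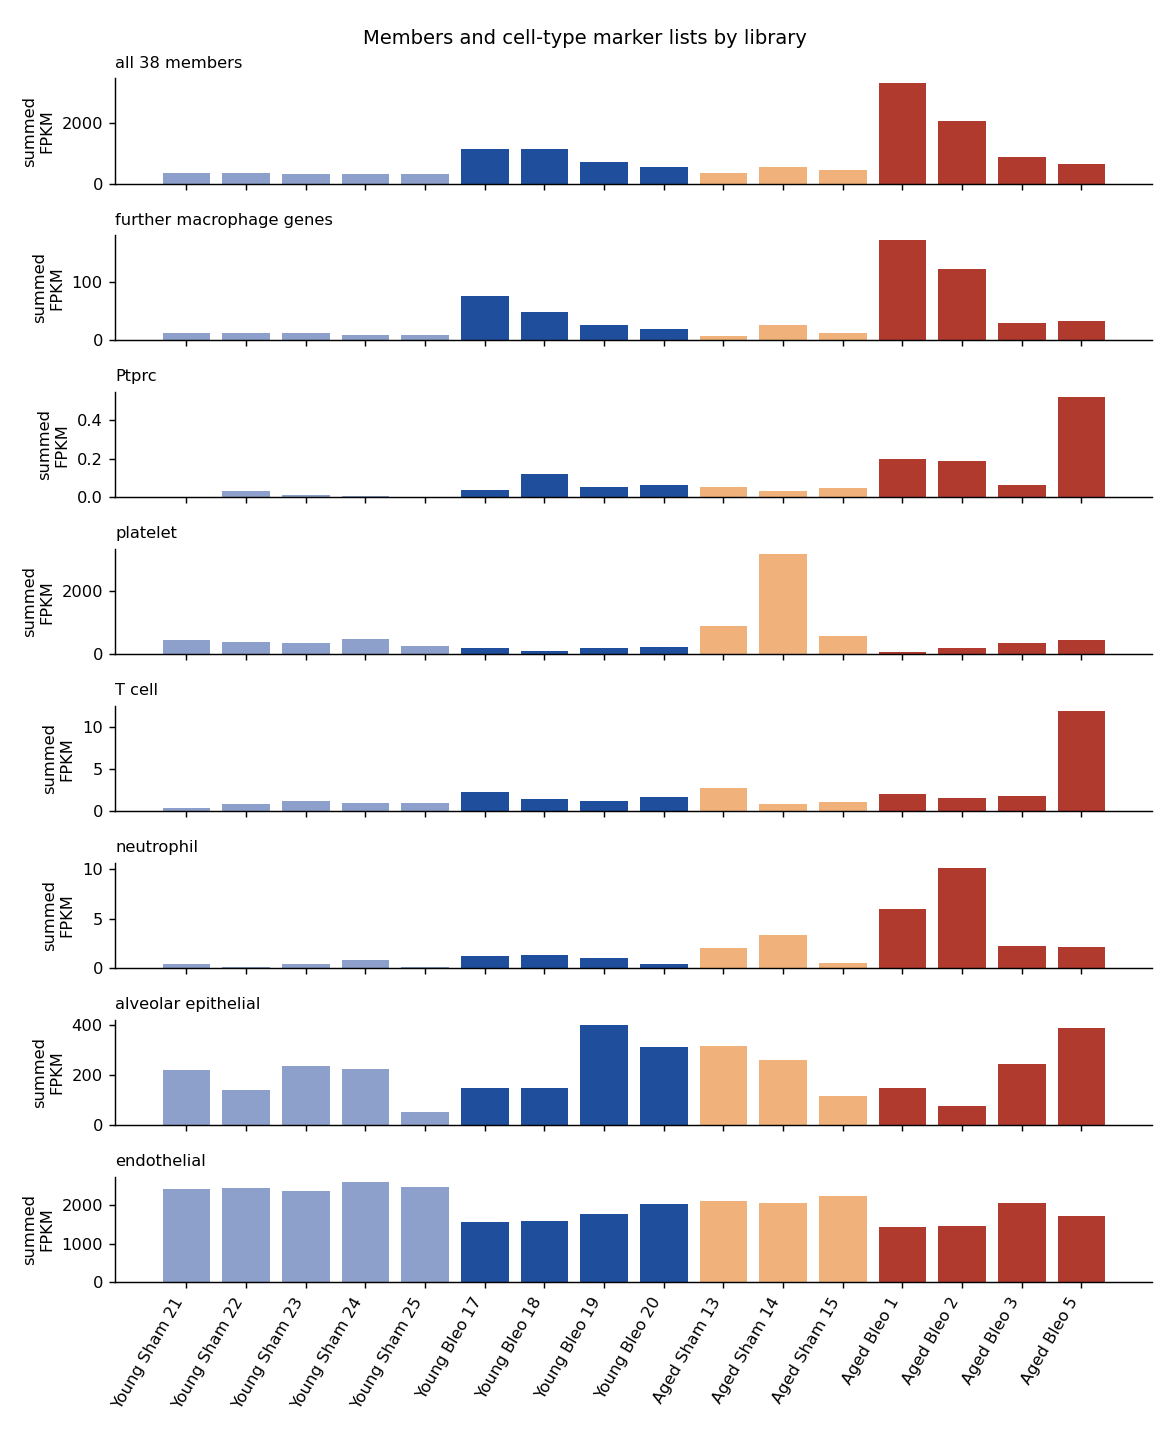
Summed FPKM (vertical axes, linear and starting at 0) of the 38 members and of lists of cell-type markers in each of the 16 libraries (bars, coloured by group). Members were highest in Aged Bleo 1 and 2 (3333 and 2070 FPKM), Ptprc stayed at or below 0.517 FPKM, platelet markers peaked in Aged Sham 14 and T cell markers in Aged Bleo 5.

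Together the members took 0.163 to 0.185% of all counts in Young Sham and 0.180 to 0.262% in Aged Sham. The share was 0.478, 0.467, 0.302 and 0.245% in the Young Bleo libraries and 1.28, 0.807, 0.384 and 0.293% in the Aged Bleo libraries. Each bleomycin library was thus above each sham library of its age. Within each bleomycin group a pair of libraries stood higher than the rest, Young Bleo 17 and 18 and Aged Bleo 1 and 2. Of the 25 members called higher in Young Bleo, library 17 held the highest value for 11 and library 18 for 10, and library 20 held the lowest for 22. Of the 21 called higher in Aged Bleo, library 1 held the highest value for 19 and library 5 the lowest for 14. The median ratio between the highest and the lowest library of a group was 5.50 over those 25 members and 9.90 over those 21. Of 10 endothelial markers 2 were called lower (Kdr and Cldn5) and 2 higher (Erg and Emcn) in Young Bleo, and 1 lower (Cldn5) and 1 higher (Tek) in Aged Bleo against Aged Sham. Kdr (VEGF receptor 2), picked after its values were seen, was 26.5, 32.0, 29.3 and 103 FPKM in Young Bleo and 29.5, 30.1, 103 and 78.7 FPKM in Aged Bleo, against 116 to 190 in Young Sham and 68.3 to 126 in Aged Sham. Its part in the members' values was not tested.

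The first comparison asked how these transcripts differed after bleomycin in young mice. A gene was called where the DESeq2 adjusted p was at most 0.05 over all genes tested and the log2 fold change was at least 0.5 in size. These limits follow the study's methods. In Young Bleo against Young Sham 25 of 38 members rose and 1 fell (Mertk), while 7.57% of the 18515 genes tested were called higher and 6.35% lower. The members' median log2 fold change was 3.07, the same with 5 members that were at or under 3 counts in each Young Sham library set at their lower bound, against 0.01 over all genes. With edgeR's quasi-likelihood test 24 members were called higher, where 5.69% of all genes tested were. For 25 members every Young Bleo library was above every Young Sham library, a pattern seen in 5.44% of the genes with any count. Other markers moved there as well: 4 of 4 mesothelial markers were called higher (4 in edgeR, median log2 fold change 4.21) and 2 of 8 neutrophil markers, S100a8 and Mmp8 (1 in edgeR), and 2 of 4 pericyte and smooth muscle markers were called lower (0 in edgeR, median -1.47). Of 6 T cell markers 1 was called higher in both tools, and of 4 erythroid markers 1 (0 in edgeR). Of 6 alveolar epithelial and 5 dendritic cell markers 1 of each list was called lower in both tools. The part of all these markers in the members' values was not tested.

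The second comparison put the same question in aged mice. In Aged Bleo against Aged Sham 21 of 38 members rose and 0 fell, and 3.40% of genes were called higher. The median log2 fold change of the members was 3.01 and that of all genes 0.01. For 18 members every Aged Bleo library was above every Aged Sham library, against 4.52% of genes with any count. edgeR's quasi-likelihood test called 10 of these 21 (0.448% of all genes): Cd68, Ctss, Gpnmb, Havcr2, Lgals3, Lyz2, Siglec1, Spp1, Tyrobp and Wfdc17. Platelet markers moved the other way in this comparison, with 4 of 5 called lower (1 in edgeR, median log2 fold change -2.50), and 1 of 5 fibroblast markers and 1 of 4 pericyte and smooth muscle markers were called lower (1 and 0 in edgeR). Of 6 T cell markers 1 was called higher in both tools. The part of all these markers in the members' values was not tested. The count of members rested on 2 libraries: without Aged Bleo 1 and 2 together, a choice made after the values were seen, DESeq2 called 3 members, and without Aged Bleo 1 alone it called 14. In Young Bleo the count was 15 without libraries 17 and 18, also chosen after the values were seen.

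The calls of both comparisons shared 19 members, each higher in both. Apoe, B430306N03Rik, Cx3cr1, Itgam, Itgax, Mertk and Msr1 were called in young mice and not in aged mice, and Csf1r and Fcgr1 in aged mice and not in young mice. The difference between the responses of the ages was tested itself and 0 of the 38 members passed in DESeq2 (0.378% of all genes did), with 5 members at an unadjusted p under 0.05 where 6.04% of all genes with a p were; edgeR also called 0, with 4 under 0.05 (6.996% of all genes). DESeq2 called 1 without Young Bleo 20 (Mertk) and 1 without Aged Sham 15 (B430306N03Rik). The 95% intervals were wide, however. For Lyz2 the aged response minus the young response was -0.32 on the log2 scale with an interval of -1.72 to 1.08, for Spp1 it was 0.23 (-1.98 to 2.44) and for Chil3 -0.13 (-2.75 to 2.49).

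**Figure D2:**
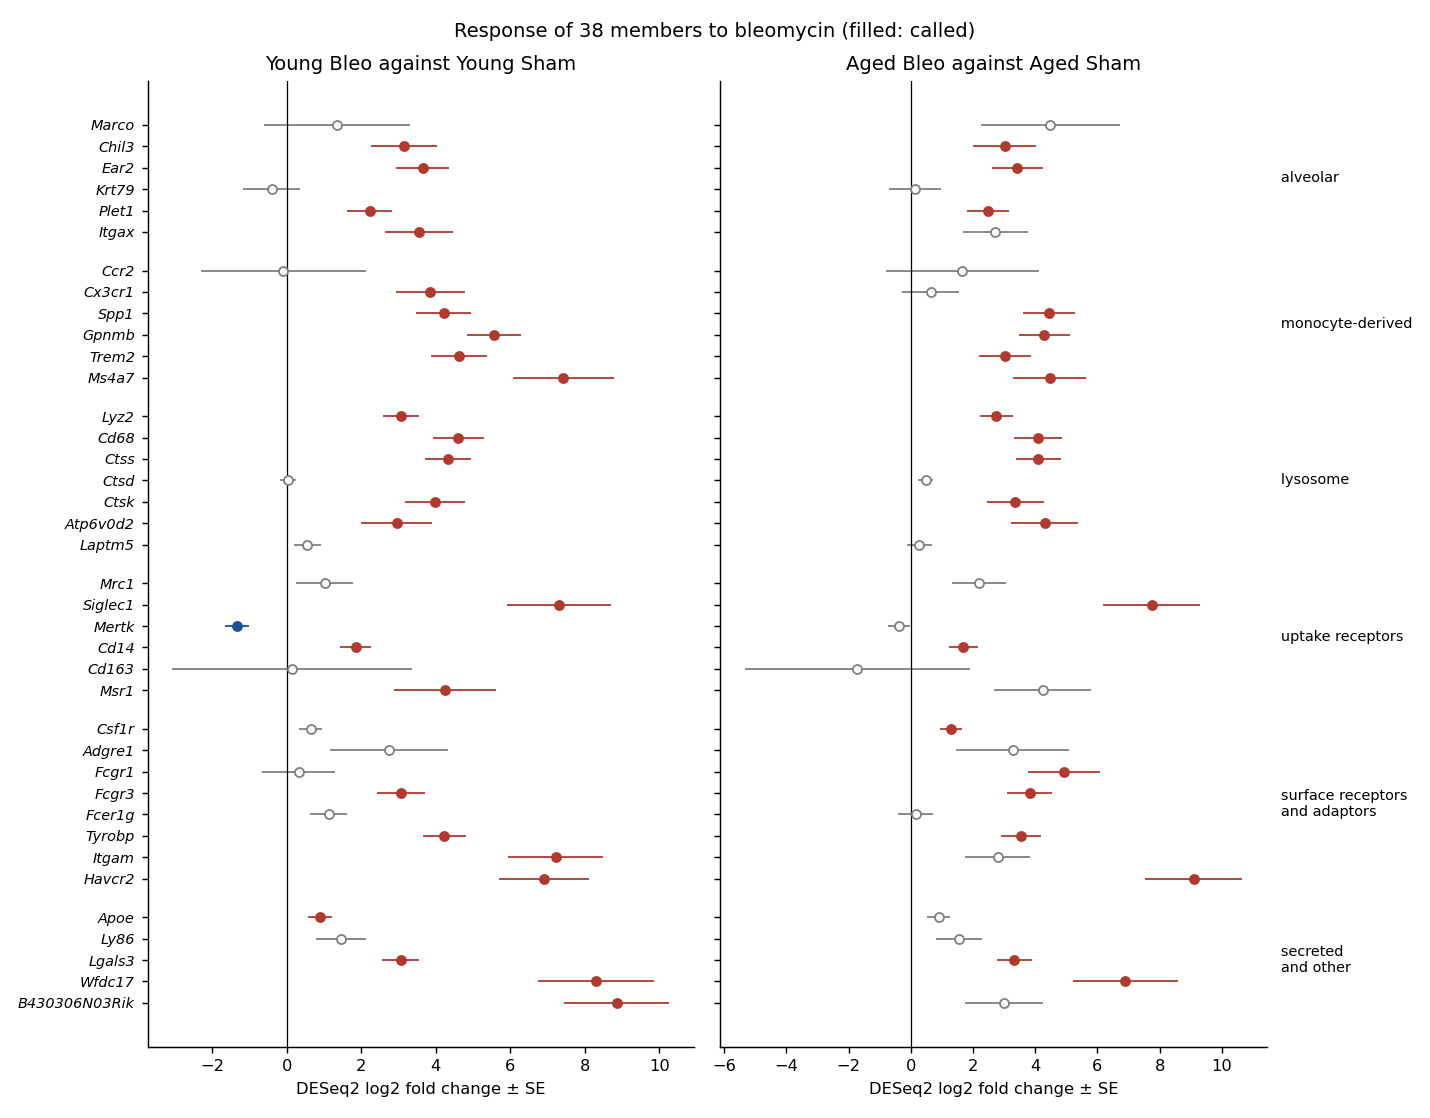
DESeq2 log2 fold change (horizontal axes) with its standard error (bars) of the 38 members, by role, in young mice (left, 4 Bleo and 5 Sham libraries) and aged mice (right, 4 and 3). Filled red points are called higher, the filled blue point (Mertk) lower, and open grey points were not called. Fitted values of genes at or under 3 counts in each sham library, such as Havcr2 and Siglec1, depend on the fit and are no measure of size.

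Alveolar macrophage genes came first by role. Of these 6 members 4 rose in Young Bleo (4 in edgeR) and 3 in Aged Bleo (0 in edgeR). In aged mice 1 of the 6 had every Bleo library above every Sham library. The 2 most abundant were Chil3 (Ym1, a chitinase-like secreted protein) and Ear2 (an eosinophil-associated ribonuclease); both belong to families of near-identical genes, so some of their reads may come from relatives. Chil3 was 3.07, 2.17, 4.29, 0.601 and 0.280 FPKM in Young Sham and 28.1, 11.02, 27.6 and 5.68 FPKM in Young Bleo. It was 2.86, 20.3 and 1.58 FPKM in Aged Sham and 175, 77.0, 19.9 and 18.0 FPKM in Aged Bleo. In young mice the groups did not overlap, whereas in aged mice the library Aged Sham 14 lay above Aged Bleo 3 and 5. The log2 fold change of Chil3 was 3.14 ± 0.88 (SE; DESeq2 adjusted p = 0.0049) in young and 3.01 ± 1.01 (adjusted p = 0.046) in aged mice. The aged call was lost without Aged Bleo 1, without Aged Bleo 2 and without Aged Sham 13 or 15, and the aged value was 4.89 without Aged Sham 14 and 2.13 without Aged Bleo 1.

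Among the Young Bleo libraries Ear2 was highest in library 19. It was 1.45, 1.47, 0.844, 1.08 and 0.423 FPKM in Young Sham and 14.0, 13.2, 21.5 and 4.32 FPKM in Young Bleo. In aged mice it was 1.72, 6.78 and 1.36 FPKM in Sham and 65.2, 65.2, 14.8 and 6.71 FPKM in Bleo. The groups were separate in young mice (log2 fold change 3.65 ± 0.71, adjusted p = 1.9e-05), and in aged mice Aged Sham 14 and Aged Bleo 5 were side by side (3.43 ± 0.81, adjusted p = 0.0018, and 4.52 without Aged Sham 14). Plet1, a membrane-anchored protein used as an alveolar macrophage marker in single-cell studies, was 0.201, 0.683, 0.0969, 0.297 and 0.0830 FPKM in Young Sham against 1.21, 1.05, 1.93 and 0.952 FPKM in Young Bleo. It reached 12.6, 6.35, 3.28 and 1.70 FPKM in Aged Bleo, from 0.688, 1.73 and 0.534 FPKM in Aged Sham. Plet1 rose by 2.23 ± 0.60 on the log2 scale in young mice (adjusted p = 0.0030) and by 2.48 ± 0.67 in aged mice (adjusted p = 0.0088), the latter not without Aged Bleo 1 or without Aged Sham 13 or 15. The young value was 2.87 without Young Sham 22, and the aged value 1.84 without Aged Bleo 1 and 3.17 without Aged Sham 14.

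Itgax, the integrin chain CD11c, was low throughout. Its FPKM was 0.0346, 0.0272, 0, 0.0593 and 0.0635 in Young Sham, 0.827, 0.201, 0.592 and 0.177 in Young Bleo, 0.0713, 0.253 and 0 in Aged Sham and 1.60, 0.872, 0.352 and 0.306 in Aged Bleo. Bleomycin libraries were above the sham libraries of their age without overlap. Itgax was called in young mice (log2 fold change 3.55 ± 0.92, adjusted p = 0.0020) but not in aged mice (2.72 ± 1.04, adjusted p = 0.097). The remaining alveolar members were not called in any comparison with Sham. Marco, the scavenger receptor of alveolar macrophages, was 0.0485, 0, 0, 0 and 0.178 FPKM in Young Sham, 0.386, 0.0703, 0 and 0.0214 in Young Bleo and 0.0440, 0 and 0.0681 in Aged Sham. In Aged Bleo it was 3.21 FPKM in library 1 and 0.352, 0.0411 and 0.0255 FPKM in the others, so 1 library carried most of its signal. Krt79, a keratin that alveolar macrophages transcribe in the mouse, was 0.0846, 0.311, 0.0899, 0.0416 and 0.0272 FPKM in Young Sham and 0.0948, 0.0347, 0.122 and 0.0864 FPKM in Young Bleo. In Aged Bleo it was 0.456, 0.258, 0.444 and 0.367 FPKM. Aged Sham 14 had the highest Krt79 of all libraries, at 0.760 FPKM, beside 0.0323 and 0.158 FPKM in the other Aged Sham libraries.

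**Figure D3:**
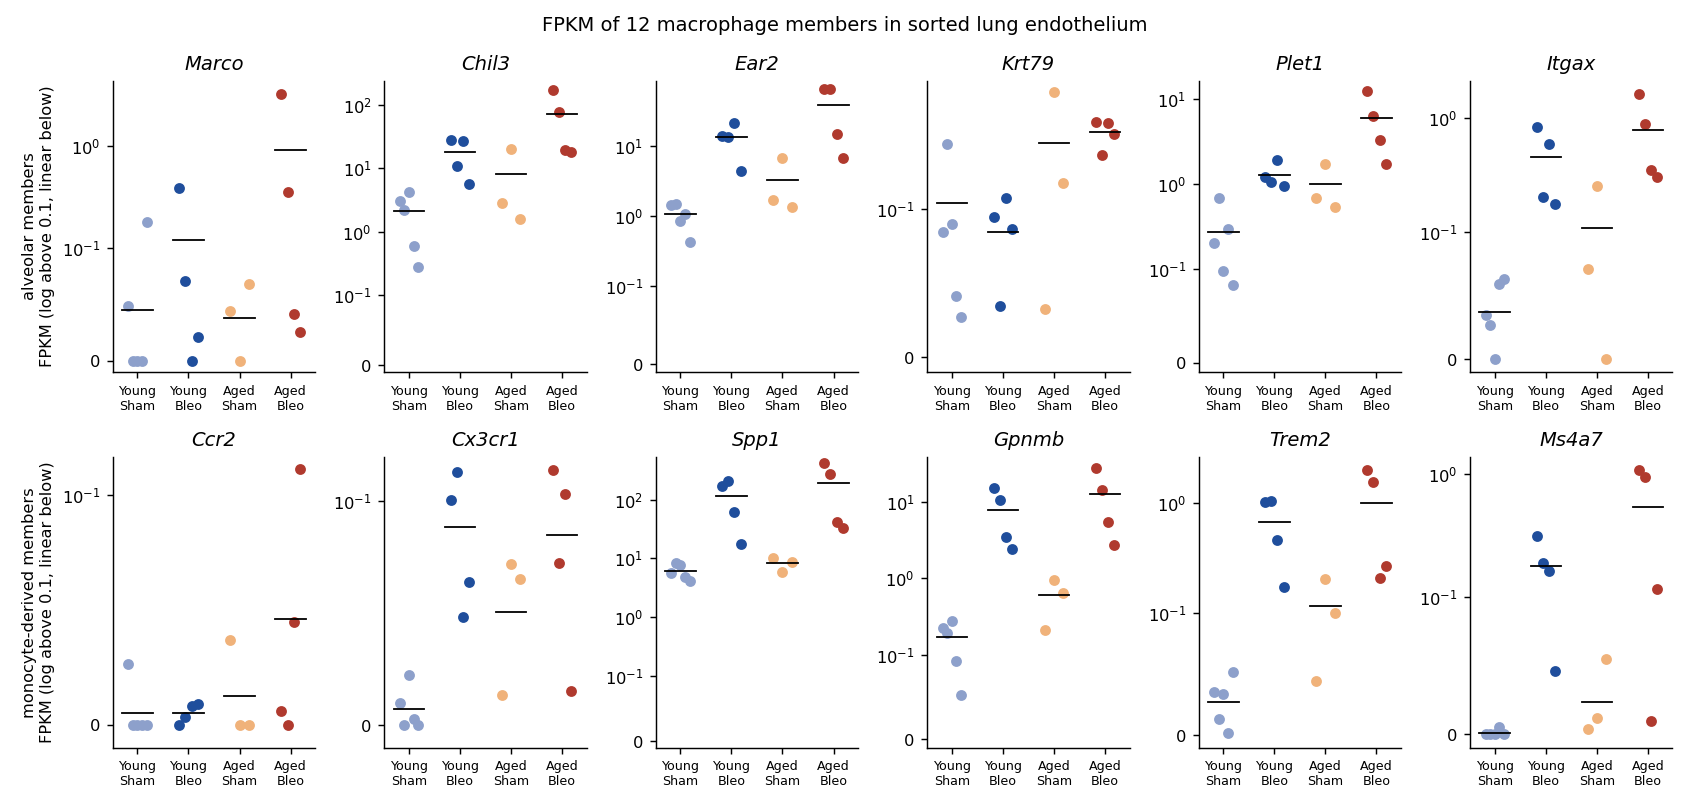
FPKM (vertical axes, logarithmic above 0.1 and linear below) of the 6 alveolar and 6 monocyte-derived members in the 16 libraries, by group, with 1 point per library and a line at the group mean. Spp1, Gpnmb and Trem2 separate Young Bleo from Young Sham without overlap, Ccr2 stays at or below 0.133 FPKM, and Aged Sham 14 stands above the other Aged Sham libraries for Chil3, Ear2 and Krt79.

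Of the 6 monocyte-derived genes 5 rose in Young Bleo (5 in edgeR) and 4 in Aged Bleo (2 in edgeR). Spp1, a secreted phosphoprotein that binds integrins, was the most abundant: 5.54, 8.22, 7.60, 4.89 and 4.19 FPKM in Young Sham and 171, 204, 60.6 and 17.2 FPKM in Young Bleo. It was 10.2, 5.96 and 8.58 FPKM in Aged Sham and 425, 273, 42.0 and 32.2 FPKM in Aged Bleo. Spp1 in each bleomycin library was above each sham library. Its log2 fold change was 4.21 ± 0.75 (adjusted p = 1.7e-06) in young and 4.44 ± 0.85 (adjusted p = 6.7e-05) in aged mice, the latter 3.75 without Aged Bleo 1.

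Gpnmb, a transmembrane glycoprotein of late endosomes, was 0.224, 0.194, 0.276, 0.0919 and 0.0526 FPKM in Young Sham and 15.2, 10.6, 3.50 and 2.39 FPKM in Young Bleo. In Aged Sham it was 0.210, 0.942 and 0.652 FPKM and in Aged Bleo 28.0, 14.3, 5.46 and 2.77 FPKM. The groups did not overlap at either age, with log2 fold changes of 5.56 ± 0.73 (adjusted p = 4.1e-11) and 4.30 ± 0.83 (adjusted p = 8e-05), the latter 3.58 without Aged Bleo 1. Trem2, the lipid-sensing receptor that signals through the adaptor Tyrobp, was 0.0359, 0.0137, 0.0339, 0.00220 and 0.0519 FPKM in Young Sham and 1.03, 1.04, 0.458 and 0.172 FPKM in Young Bleo. It was 0.0446, 0.205 and 0.101 FPKM in Aged Sham and 2.00, 1.56, 0.207 and 0.266 FPKM in Aged Bleo. Trem2 was called at both ages (4.62 ± 0.75, adjusted p = 1.5e-07, and 3.02 ± 0.84, adjusted p = 0.011), and the aged call was lost without Aged Bleo 1, Aged Bleo 2, Aged Sham 13 or Aged Sham 15, while the aged value was 3.72 without Aged Sham 14.

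Ms4a7, a tetraspan membrane protein of tissue macrophages, had 2 counts in Young Sham 24 and 0 in the other 4 Young Sham libraries. It was 0.314, 0.192, 0.165 and 0.0463 FPKM in Young Bleo, at least 13.0-fold higher than the floor of 3 counts in a Young Sham library and at least 9.79-fold without Young Bleo 17 (adjusted p = 3e-06). In Aged Sham it was 0.00381, 0.0116 and 0.0550 FPKM and in Aged Bleo 1.09, 0.955, 0.00956 and 0.118 FPKM. Aged Bleo 3 lay within the Aged Sham range, yet Ms4a7 passed the test (4.47 ± 1.17, adjusted p = 0.0061), and it did not without Aged Bleo 1. The value was 5.97 without Aged Sham 15. The chemokine receptors were at the other end of the scale. Cx3cr1, the fractalkine receptor, was 0.00998, 0, 0.0224, 0.00291 and 0 FPKM in Young Sham and 0.102, 0.139, 0.0483 and 0.0639 FPKM in Young Bleo, where it was called (3.86 ± 0.92, adjusted p = 0.00064, and 4.75 without Young Sham 23). In aged mice it was 0.0136, 0.0719 and 0.0654 FPKM in Sham and 0.143, 0.0724, 0.109 and 0.0153 FPKM in Bleo, groups that overlapped. Ccr2, the receptor that recruits inflammatory monocytes, was 0.0263 FPKM in Young Sham 21 and 0 in the other 4 Young Sham libraries, and 0, 0.00326, 0.00832 and 0.00902 FPKM in Young Bleo. It was 0.0371, 0 and 0 FPKM in Aged Sham and 0.00608, 0, 0.0447 and 0.133 FPKM in Aged Bleo. The highest value was in Aged Bleo 5, the library with the most T cell transcript, and it was called in none of the comparisons. Among 8 markers of circulating classical and patrolling monocytes, listed beside the members, 1 (Plac8) was called higher in Young Bleo and 0 in Aged Bleo against Aged Sham, with median log2 fold changes of -0.14 and 0.38. Ly6c2, which marks classical monocytes, was called at neither age (0.56 ± 0.62, adjusted p = 0.63, and -0.18 ± 0.71, adjusted p = 0.94). In Young Sham, however, Ace of this list had 31803 to 91477 counts and Ly6c2 157 to 2454, where Ptprc had at most 66. The list is therefore no clean measure of monocytes here, and which cells its transcripts came from was not tested.

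The promoter windows of 4 members that rose at both ages are shown with the words searched in capitals, as examples from 3 of the groups named here. Each of the 4 holds a word searched for, whereas those of Lyz2, Chil3, Lgals3 and Wfdc17, which also rose at both ages, hold none. Another window of Spp1, with a C/EBP type word, is counted below but not shown. The windows are RefSeq sequence of the GRCm38.p6 build (of C57BL/6J, whereas the mice were FVB), 300 bases 5′ to 3′ on the gene's strand, 250 before and 50 after an annotated start. The words were GAGGAAGT (PU.1 type), TTGCNNAA (C/EBP type), TCACGTGA (MITF/TFE type) and TGANTCA (AP-1 type), read on both strands. Spp1 is shown at chr5:104434861-104435160 on the plus strand, Trem2 at chr17:48346151-48346450 on the plus strand, Cd68 at chr11:69666121-69666420 on the minus strand and Havcr2 at chr11:46454681-46454980 on the plus strand.
Spp1: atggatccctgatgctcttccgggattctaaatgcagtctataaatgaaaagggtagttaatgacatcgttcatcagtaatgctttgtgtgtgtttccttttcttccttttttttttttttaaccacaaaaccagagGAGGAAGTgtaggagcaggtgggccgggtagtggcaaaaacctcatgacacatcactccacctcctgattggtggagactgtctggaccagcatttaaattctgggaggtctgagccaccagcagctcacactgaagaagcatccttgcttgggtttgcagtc
Trem2: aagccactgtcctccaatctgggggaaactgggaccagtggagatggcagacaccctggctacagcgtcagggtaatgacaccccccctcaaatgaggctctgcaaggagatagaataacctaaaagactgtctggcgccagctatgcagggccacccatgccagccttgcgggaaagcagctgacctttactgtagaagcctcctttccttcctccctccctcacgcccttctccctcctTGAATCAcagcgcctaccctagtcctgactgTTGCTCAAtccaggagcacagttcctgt
Cd68: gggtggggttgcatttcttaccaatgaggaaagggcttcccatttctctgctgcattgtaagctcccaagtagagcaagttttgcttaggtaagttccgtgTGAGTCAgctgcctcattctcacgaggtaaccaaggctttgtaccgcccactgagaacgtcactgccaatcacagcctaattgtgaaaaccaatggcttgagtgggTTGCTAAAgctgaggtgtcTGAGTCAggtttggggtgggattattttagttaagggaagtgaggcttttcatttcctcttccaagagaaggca
Havcr2: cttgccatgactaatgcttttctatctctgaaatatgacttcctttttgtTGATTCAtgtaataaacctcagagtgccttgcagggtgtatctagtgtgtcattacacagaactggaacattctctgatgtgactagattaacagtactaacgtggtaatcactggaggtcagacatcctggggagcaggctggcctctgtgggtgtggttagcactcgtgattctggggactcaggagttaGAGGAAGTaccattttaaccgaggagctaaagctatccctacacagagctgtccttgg

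Of the 38 members 31 had a window in the RefSeq table. The PU.1 type word was in the windows of 4 of these (Spp1, Ctss, Havcr2 and B430306N03Rik; 12.9%), and in 3.20% of 32817 windows of all genes. The C/EBP type word was in those of 7 members (22.6%; 10.8% of all windows), the AP-1 type word in those of 7 (22.6%; 7.81%), and the MITF/TFE type word in that of 1, Ctsd (3.23%; 0.975%). Some members have more than 1 window, which gives them more bases to match. Trem2 and B430306N03Rik are near each other on chromosome 17. A match describes the letters alone and says nothing of binding in these cells.

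The summed FPKM of the 2 named classes was set side by side in each library. Alveolar members summed to 3.60 ± 1.91 FPKM (SD, n = 5) in Young Sham, 33.3 ± 18.4 (n = 4) in Young Bleo, 13.0 ± 14.6 (n = 3) in Aged Sham and 118 ± 108 (n = 4) in Aged Bleo. Monocyte-derived members summed to 6.30 ± 1.81, 122 ± 94.4, 9.04 ± 1.68 and 207 ± 203 FPKM in the same order, and these sums were mostly Spp1. The alveolar sums were mostly Chil3 and Ear2, which may both take reads from relatives, so the ratio of the 2 sums rests mostly on these genes. In Aged Sham 14 the ratio of Chil3 to Spp1 alone was 3.40. The ratio of the alveolar to the monocyte-derived sum was 0.245 to 0.838 in Young Sham. In Young Bleo it was 0.238, 0.119, 0.799 and 0.564, so libraries 17 and 18, which had the most Spp1, did not have the most alveolar transcript; library 19 did, at 51.7 FPKM. In Aged Bleo the ratio was 0.566, 0.517, 0.812 and 0.764, and both sums were highest in libraries 1 and 2. The Young Bleo and Aged Bleo ratios overlapped. In Aged Sham the ratio was 0.517, 4.14 and 0.392: Aged Sham 14 had 29.8 FPKM of alveolar transcript with 7.19 FPKM of monocyte-derived transcript, a level of the latter within the range of the sham libraries.

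**Figure D4:**
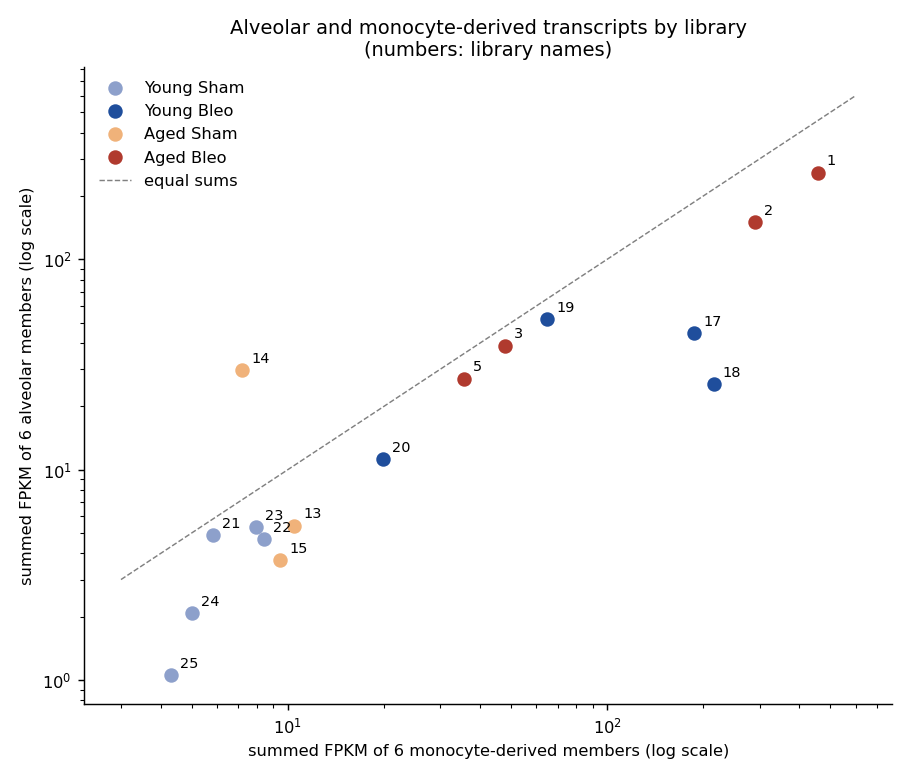
Summed FPKM of 6 alveolar members (vertical axis) against that of 6 monocyte-derived members (horizontal axis), both on log scales, with 1 point per library, numbered by its label; the dashed line marks equal sums. Aged Sham 14 is the single library above the line, at 29.8 against 7.19 FPKM, and Young Bleo 17 and 18 lie farthest below it among the bleomycin libraries.

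Most lysosomal members were highest in the same pair of libraries of each bleomycin group. Of these 7 members 5 rose at each age (5 in young and 3 in aged mice in edgeR). Lyz2 (lysozyme M, an enzyme that breaks bacterial walls) was the most abundant gene of the set in Aged Bleo 1. It was 37.5, 35.7, 37.9, 32.4 and 20.9 FPKM in Young Sham and 333, 397, 243 and 140 FPKM in Young Bleo. It was 47.0, 156 and 52.8 FPKM in Aged Sham and 1265, 716, 326 and 178 FPKM in Aged Bleo. The groups did not overlap at either age, although the gap between Aged Sham 14 and Aged Bleo 5 was small. The log2 fold change was 3.07 ± 0.47 (adjusted p = 1.9e-08) in young and 2.75 ± 0.54 (adjusted p = 9.6e-05) in aged mice, the latter 3.53 without Aged Sham 14. Lyz2 has a near-identical neighbour, Lyz1, with which it may share reads.

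Ctss (cathepsin S, the protease that trims the invariant chain in antigen presentation) was 2.26, 1.28, 1.64, 2.58 and 0.889 FPKM in Young Sham and 52.9, 46.9, 32.3 and 9.18 FPKM in Young Bleo. It was 4.38, 6.72 and 2.99 FPKM in Aged Sham and 164, 130, 25.2 and 29.5 FPKM in Aged Bleo, again without overlap. Ctss rose by 4.33 ± 0.63 (adjusted p = 2.4e-09) and 4.10 ± 0.71 (adjusted p = 8.8e-06) on the log2 scale. Cd68, a lysosomal membrane glycoprotein used as a pan-macrophage marker, went from 1.010, 0.694, 0.433, 0.503 and 0.650 FPKM in Young Sham to 25.4, 22.3, 12.04 and 4.97 FPKM in Young Bleo. In aged mice it went from 1.40, 3.10 and 0.494 FPKM to 62.2, 42.7, 10.6 and 7.34 FPKM. The groups were separate at both ages (4.60 ± 0.69, adjusted p = 6.7e-09, and 4.08 ± 0.78, adjusted p = 6.7e-05, the latter 4.88 without Aged Sham 14).

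Atp6v0d2, a subunit of the proton pump that acidifies lysosomes, was 0.261, 0.281, 0.332, 0.177 and 0.168 FPKM in Young Sham and 3.40, 2.69, 1.05 and 0.403 FPKM in Young Bleo. In Aged Sham it was 0.0812, 0.667 and 0.00322 FPKM and in Aged Bleo 10.5, 7.42, 2.13 and 1.46 FPKM. Bleomycin libraries were above the sham libraries of their age, and both calls passed (2.95 ± 0.94, adjusted p = 0.016, and 4.31 ± 1.08, adjusted p = 0.0035), the young one not without Young Bleo 17 or 18. Its aged value was 6.89 without Aged Sham 14 and 3.72 to 4.62 without any other library, and the call held in each of these fits. Ctsk (cathepsin K, a collagen-cleaving protease) was 0.302 to 0.738 FPKM in Young Sham, 2.71 to 17.1 in Young Bleo and 2.29 to 32.1 in Aged Bleo, with 0.332, 3.20 and 0.366 FPKM in Aged Sham. It rose at both ages as well, by 3.99 ± 0.80 and 3.37 ± 0.91, and lost its aged call without Aged Bleo 1 or without Aged Sham 13 or 15, while the aged value was 5.27 without Aged Sham 14 and 2.65 without Aged Bleo 1. The remaining pair was called at neither age. Ctsd (cathepsin D) was 179 to 228 FPKM in Young Sham, 176 to 245 in Young Bleo and 164 to 268 in Aged Sham, the highest level of any member in the sham libraries. It was 525, 288, 306 and 223 FPKM in Aged Bleo and was called at neither age. Laptm5, a lysosomal protein of blood cells, was 1.73 to 3.25 FPKM in Young Sham, 3.24 to 4.27 in Young Bleo and 5.98 to 13.5 in Aged Bleo. In Aged Sham it was 2.71, 12.4 and 4.37 FPKM, and the aged response was 0.28 ± 0.40 on the log2 scale (adjusted p = 0.80), with the highest sham value in the platelet-rich library 14, without which it was 1.17 and was called (adjusted p = 0.0076).

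Receptors for uptake of particles and dying cells differed among themselves. Of these 6 members 3 rose and 1 fell in Young Bleo (3 and 1 in edgeR), and 2 rose in Aged Bleo (1 in edgeR). Siglec1 (sialoadhesin, CD169) had 2 counts in Young Sham 23, 2 in Aged Sham 14 and 0 in the other 6 sham libraries. It was 0.190, 0.191, 0.0194 and 0.0138 FPKM in Young Bleo and 0.537, 0.327, 0.0732 and 0.0241 FPKM in Aged Bleo. Relative to the floor of 3 counts the young mice were at least 12.02-fold higher (at least 8.65-fold without Young Bleo 18), and the aged mice at least 29.6-fold (at least 18.0-fold without Aged Bleo 1). Msr1, the class A scavenger receptor, was 0, 0.0869, 0.131, 0 and 0 FPKM in Young Sham and 1.00, 1.54, 0.319 and 0.346 FPKM in Young Bleo (4.25 ± 1.37, adjusted p = 0.017), a call lost without Young Bleo 17 or 18, while the value was 5.23 without Young Sham 23. In aged mice it was 0.0764, 0.129 and 0.0175 FPKM in Sham and 3.25, 2.02, 0.606 and 0.283 FPKM in Bleo; the groups did not overlap and the call was missed (4.24 ± 1.56, adjusted p = 0.081). Cd14, the co-receptor for bacterial lipopolysaccharide, was 0.580 to 1.16 FPKM in Young Sham and 1.66 to 5.24 in Young Bleo, and 1.35 to 2.61 FPKM in Aged Sham and 2.97 to 12.5 in Aged Bleo. It rose at both ages, by 1.86 ± 0.42 and 1.69 ± 0.47 on the log2 scale, the aged call being lost without Aged Bleo 1, Aged Bleo 2 or Aged Sham 15.

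Mertk, the receptor tyrosine kinase with which phagocytes engulf dying cells, went the other way. It was 11.01, 13.1, 11.6, 9.82 and 12.8 FPKM in Young Sham and 3.999, 3.89, 2.33 and 8.96 FPKM in Young Bleo, so every Young Bleo library was lower. It fell by 1.33 ± 0.31 on the log2 scale (DESeq2 adjusted p = 0.00045, edgeR adjusted p = 0.015), but the call was lost without Young Bleo 17 and 18. In aged mice Mertk was 6.67, 10.6 and 11.1 FPKM in Sham and 5.45, 4.85, 10.9 and 10.8 FPKM in Bleo, groups that overlapped (-0.37 ± 0.35, adjusted p = 0.64). The difference between the ages was 0.96 with an interval of 0.04 to 1.88 and an adjusted p of 0.61, and it was called without Young Bleo 20. The low libraries for Mertk, Young Bleo 17 to 19 and Aged Bleo 1 and 2, were also those with Kdr at 26.5 to 32.0 FPKM. In Young Sham Mertk had 2391 to 6717 counts, where Ptprc had at most 66 and Adgre1 at most 65. Which cells the Mertk transcript came from was not tested. Mrc1, the mannose receptor CD206, was 0 to 0.350 FPKM in Young Sham against 0.181 to 0.615 in Young Bleo, and 0.0373 to 0.213 FPKM in Aged Sham against 0.286 to 1.19 in Aged Bleo. It was not called (1.02 ± 0.77, adjusted p = 0.43, and 2.19 ± 0.88, adjusted p = 0.12). Cd163, the haemoglobin scavenger receptor, was at 0 counts in 11 of 16 libraries and had at most 35 counts in any.

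Surface receptors of the myeloid lineage and their adaptors were next. Of these 8 members 4 rose in Young Bleo (4 in edgeR) and 5 in Aged Bleo (2 in edgeR). The adaptor Tyrobp (DAP12), through which Trem2 and other receptors signal, was 1.504, 0.900, 0.668, 0.946 and 0.303 FPKM in Young Sham and 21.8, 21.9, 17.6 and 4.33 FPKM in Young Bleo. It was 3.30, 4.30 and 1.86 FPKM in Aged Sham and 71.2, 61.3, 14.6 and 10.9 FPKM in Aged Bleo. The groups did not overlap (4.23 ± 0.57, adjusted p = 1.3e-10, and 3.53 ± 0.65, adjusted p = 3e-05). The other adaptor, Fcer1g, carries the common Fc receptor gamma chain, which platelets also use. It was 2.35 to 6.38 FPKM in Young Sham, 4.003 to 12.1 in Young Bleo and 7.68 to 33.4 in Aged Bleo. In Aged Sham it was 11.9, 30.1 and 7.48 FPKM, again highest in the library with the most platelet transcript, and its aged response was 0.16 ± 0.56 (adjusted p = 0.93), or 0.92 without that library (adjusted p = 0.39).

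Fcgr3, an activating receptor for IgG whose locus overlaps that of other Fc receptor genes, was 0.613, 0.527, 0.169, 0.0879 and 0.225 FPKM in Young Sham and 3.46, 3.37, 3.40 and 0.607 FPKM in Young Bleo. It was 0.518, 0.465 and 0.181 FPKM in Aged Sham and 11.5, 8.68, 2.22 and 1.59 FPKM in Aged Bleo. Young Bleo 20 was as low as the highest Young Sham library, and Fcgr3 passed at both ages (3.06 ± 0.64, adjusted p = 7.3e-05, and 3.82 ± 0.73, adjusted p = 6.7e-05). Havcr2 (TIM-3), an inhibitory receptor of lymphoid and myeloid cells, had 3 counts in Young Sham 22 and 0 in the other 7 sham libraries. It was 0.353, 0.467, 0.180 and 0.0939 FPKM in Young Bleo and 1.21, 0.391, 0.190 and 0.0572 FPKM in Aged Bleo. These levels were at least 12.1-fold (at least 9.26-fold without Young Bleo 18) and at least 21.5-fold higher (at least 10.1-fold without Aged Bleo 1) than the floor. Itgam (CD11b), with at most 1 count in any Young Sham library, was 0.0117 to 0.259 FPKM in Young Bleo, at least 11.2-fold above the floor and at least 6.0-fold without Young Bleo 17. Itgam in aged mice was 0.0106, 0.00487 and 0.0507 FPKM in Sham and 0.296, 0.188, 0.0267 and 0.142 FPKM in Bleo, groups that overlapped (2.80 ± 1.04, adjusted p = 0.086).

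The receptors that define macrophages by their lineage were low beside Lyz2 and Spp1. Csf1r, the receptor for the growth factor on which macrophages depend, was 0.596, 0.645, 0.459, 0.583 and 0.545 FPKM in Young Sham, 1.30, 0.795, 0.834 and 0.678 in Young Bleo, 0.774, 0.445 and 0.333 in Aged Sham and 2.18, 1.28, 0.934 and 1.23 in Aged Bleo. Bleomycin libraries were above the sham libraries of their age without overlap, but by little. The test passed in aged mice (1.30 ± 0.35, adjusted p = 0.0079) and not in young mice (0.65 ± 0.31, adjusted p = 0.15), and the aged call was lost without Aged Bleo 1 or without Aged Sham 15. Adgre1 (F4/80) was 0.0115, 0.0209, 0, 0 and 0.190 FPKM in Young Sham, 0.586, 0.411, 0.190 and 0.0406 in Young Bleo, 0.0209, 0.172 and 0.00269 in Aged Sham and 2.15, 0.584, 0.0169 and 0.0126 in Aged Bleo. Its groups overlapped at both ages and it was not called (2.75 ± 1.59, adjusted p = 0.26, and 3.27 ± 1.81, adjusted p = 0.32). Single libraries moved Adgre1 far: the young value was 5.20 and was called without Young Sham 25 (adjusted p = 0.012), and the aged value was 5.74 without Aged Sham 14 and 1.60 without Aged Bleo 1, both uncalled. Fcgr1 (CD64), the high-affinity IgG receptor, was 0.0144 to 0.0890 FPKM in Young Sham, 0.00411 to 0.200 in Young Bleo and 0 to 0.0280 in Aged Sham. In Aged Bleo it was 0.861, 1.26, 0.0587 and 0.0885 FPKM and was called (4.93 ± 1.16, adjusted p = 0.0017, and 4.11 without Aged Bleo 2). In Aged Bleo 1, Csf1r (2.18 FPKM) and Adgre1 (2.15 FPKM) thus stood far below Lyz2 (1265 FPKM) and Spp1 (425 FPKM) on the scale per length, and Ptprc was at 0.201 FPKM.

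Secreted products and 1 gene without a named product made up the rest. Of these 5 members 4 rose in Young Bleo (3 in edgeR) and 2 in Aged Bleo (2 in edgeR). Lgals3 (galectin-3, a carbohydrate-binding protein linked to fibrosis) was 1.81, 2.75, 2.49, 2.02 and 1.53 FPKM in Young Sham and 31.2, 21.4, 14.5 and 4.08 FPKM in Young Bleo. It was 2.11, 3.82 and 2.29 FPKM in Aged Sham and 57.4, 36.9, 14.4 and 10.1 FPKM in Aged Bleo. The groups were separate (3.06 ± 0.49, adjusted p = 1.1e-07, and 3.33 ± 0.56, adjusted p = 4.6e-06). Wfdc17, a small secreted protein of activated macrophages, was 0.0175, 0, 0, 0.163 and 0 FPKM in Young Sham and 17.7, 22.0, 7.43 and 1.37 FPKM in Young Bleo (8.30 ± 1.55, adjusted p = 6.3e-06). In aged mice it was 0.318, 0.795 and 0 FPKM in Sham and 104, 79.6, 3.71 and 3.97 FPKM in Bleo (6.89 ± 1.69, adjusted p = 0.0028). Libraries 1 and 2 were far above libraries 3 and 5 for this gene. The young value was 10.9 without Young Sham 24, which held 8 of the 9 counts of that group, and the aged value ran from 6.22 without Aged Bleo 1 to 8.09 without Aged Sham 14, with the call held in each fit.

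Apoe, a carrier of lipids made by many cells, was 37.7, 51.1, 61.6, 49.1 and 67.4 FPKM in Young Sham and 121, 96.2, 75.4 and 115 FPKM in Young Bleo. It was 78.2, 56.7 and 76.1 FPKM in Aged Sham and 237, 184, 66.0 and 80.7 FPKM in Aged Bleo. The young groups were separate and the aged groups overlapped. The young rise of 0.90 ± 0.32 passed in DESeq2 (adjusted p = 0.036) and not in edgeR (adjusted p = 0.076), and 6 of 9 fits that left out 1 library lost it (those without Young Sham 21, 22 or 24 and without Young Bleo 17, 18 or 20). The aged value was 0.90 ± 0.37 (adjusted p = 0.13). B430306N03Rik, a gene of the Trem cluster, was at 0 in Young Sham and 0.169, 0.189, 0.117 and 0.0796 FPKM in Young Bleo, at least 15.6-fold above the floor and at least 13.7-fold without Young Bleo 18. In aged mice it was 0, 0.0567 and 0 FPKM in Sham and 0.347, 0.149, 0.0307 and 0.139 FPKM in Bleo, where Aged Sham 14 lay above Aged Bleo 3 and the gene was not called (3.00 ± 1.26, adjusted p = 0.14). Ly86 (MD-1) was 0.0340 to 0.267 FPKM in Young Sham and 0.248 to 0.944 in Young Bleo, and 0.323 to 0.508 FPKM in Aged Sham and 0.287 to 2.20 in Aged Bleo, and it was called at neither age.

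A further comparison that the study made set Aged Bleo against Young Sham, and it shares its controls with the young response. There 31 of 38 members rose and 0 fell, against 6.58% of genes called higher, and edgeR called 30 (4.20% of genes). Markers of other cell types moved there too. Pericyte and smooth muscle markers were called lower in 4 of 4 (both tools, median log2 fold change -2.56), fibroblast markers lower in 3 of 5 (2 in edgeR) and mesothelial markers higher in 3 of 4 (2 in edgeR). Ptprc (log2 fold change 4.57), 2 of 8 neutrophil, 1 of 6 T cell and 1 of 8 monocyte markers were called higher in both tools. Of 6 alveolar epithelial markers 1 was called lower in both tools. The part of all these markers in the members' values was not tested. Lyz2 differed by 4.27 ± 0.47 on the log2 scale in this comparison (adjusted p = 5.4e-16) and by 3.07 ± 0.47 in Young Bleo against Young Sham. Chil3 differed by 5.17 ± 0.88 and 3.14 ± 0.88, Spp1 by 5.03 ± 0.75 and 4.21 ± 0.75, and Tyrobp by 5.54 ± 0.57 and 4.23 ± 0.57. Over fits without 1 library the Aged Bleo against Young Sham value was 3.68 to 4.58 for Lyz2 and 4.29 to 5.59 for Chil3. It was 4.34 to 5.39 for Spp1 and 5.13 to 5.86 for Tyrobp. The members called in none of the bleomycin comparisons were 6: Adgre1, Ccr2, Cd163, Krt79, Marco and Mrc1. Set directly against Young Bleo, Aged Bleo had 1 member called higher, Plet1 (2.25 ± 0.62, adjusted p = 0.037; 0.585% of genes were called higher), and edgeR called 0. In each tool 15 members had an unadjusted p under 0.05, as did 7.61% of all genes in DESeq2 and 8.75% in edgeR. Plet1 was not called without Young Bleo 17, 18 or 20 or without Aged Bleo 1 or 2. For Lyz2 this difference was 1.20 ± 0.50 (adjusted p = 0.30), and it turned to -0.16 without Aged Bleo 1 and 2.

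Age without injury was compared in Aged Sham against Young Sham. DESeq2 called 7 members higher and 0 lower (2.24% of genes were called higher): Laptm5, Fcer1g, Tyrobp, Itgam, Cx3cr1, Ms4a7 and B430306N03Rik. edgeR called 0 (0.699% of genes), with 16 members at an unadjusted p under 0.05 (12.7% of all genes) against 19 in DESeq2 (10.3%). Without Aged Sham 14, the library rich in platelet transcript, 1 of the 38 members was called, Itgam, and without Young Sham 25 it was 4. Itgam had 4, 3 and 37 counts in the Aged Sham libraries, and its call was lost without Aged Sham 15. The calls of Cx3cr1 and Ms4a7 were lost in 5 and 6 of 8 fits that left out 1 library. Laptm5 was 1.49 ± 0.38 higher on the log2 scale (adjusted p = 0.0071) and Fcer1g 2.22 ± 0.54 higher (adjusted p = 0.0031), and neither call held without Aged Sham 14. Over fits without 1 library the values went as low as 0.60 for Laptm5 and 1.46 for Fcer1g. B430306N03Rik was at 0 in each Young Sham library and had 0, 38 and 0 counts in Aged Sham, so its call rested on Aged Sham 14. Tyrobp was 2.01 ± 0.63 higher (adjusted p = 0.040), with each Aged Sham library above each Young Sham library, though 6 of 8 fits that left out 1 library lost the call. Lyz2 also had every Aged Sham library above every Young Sham library and was not called (1.52 ± 0.51, adjusted p = 0.073, and 0.74 to 1.79 over fits without 1 library). Of 5 platelet markers 3 were called higher here (0 in edgeR; median log2 fold change 1.92). Of 4 mesothelial markers 3 were called higher (2 in edgeR; median log2 fold change 4.35), their summed level being 0.00405 to 1.18 FPKM in Young Sham and 2.72, 7.17 and 12.4 FPKM in Aged Sham. Of 4 erythroid markers 2 were called (0 in edgeR), with sums of 29.9 to 159 FPKM and 478, 493.2 and 233 FPKM. The mesothelial sum was 15.3, 4.96, 6.92 and 6.79 FPKM in Young Bleo, and 0 of 4 mesothelial markers were called in Aged Bleo against Aged Sham. Among 8 neutrophil, 4 B cell and 5 fibroblast markers 1 of each list was called higher (0 in edgeR). Of 4 pericyte and smooth muscle markers 1 was called lower (0 in edgeR). Ptprc was 2.27 ± 0.85 higher, with each Aged Sham library above each Young Sham library, and was not called (DESeq2 adjusted p = 0.13). The part of platelet, mesothelial, erythroid and these other transcripts in the members' values was not tested.

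Other macrophage genes, listed beside the members and not among them, were read in the same way. Of 23 found, 15 were called higher in Young Bleo and 15 in Aged Bleo, where 7.57% and 3.40% of all genes were. With edgeR these counts were 12 and 1 (5.69% and 0.448% of all genes). They included the complement C1q chains, which macrophages secrete: C1qa was at most 0.220 FPKM in Young Sham and 4.36, 5.99, 0.858 and 0.285 FPKM in Young Bleo, and 0.0163, 0.457 and 0.134 FPKM in Aged Sham and 19.6, 16.5, 0.538 and 1.86 FPKM in Aged Bleo. Spi1, which encodes the factor PU.1, was at most 0.177 FPKM in Young Sham and 1.15, 1.08, 0.734 and 0.434 FPKM in Young Bleo. C1qa and Spi1 were highest in Young Bleo 17 and 18 and in Aged Bleo 1 and 2, as most called members were. Siglecf, a defining marker of alveolar macrophages, was 0.0234, 0.0729, 0.0526, 0 and 0 FPKM in Young Sham and 0.136, 0.0298, 0 and 0.0384 FPKM in Young Bleo, groups that overlapped. In Aged Sham it was 0, 0.0779 and 0 FPKM and in Aged Bleo 0.902, 0.257, 0.597 and 0.346 FPKM, without overlap. Siglecf was called at neither age (0.80 ± 1.33, adjusted p = 0.77, and 4.18 ± 1.52, adjusted p = 0.076), and Fabp1 was called at neither age. Neutrophil transcript over 8 markers summed to 0.0807 to 0.777 FPKM in Young Sham, 0.451 to 1.34 in Young Bleo, 0.507 to 3.39 in Aged Sham and 5.99, 10.1, 2.22 and 2.15 in Aged Bleo. Camp was at 0 in each library, and Ly6g at most 0.374 FPKM. The part of such cells in the members' values was not tested.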

How the data were processed

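RNA was sequenced from ECs sorted from lungs of young and aged mice given PBS or bleomycin, in 16 libraries. Per the submitters' processing notes, reads were demultiplexed with bcl2fastq, aligned to mm10 with STAR 2.5.2b and counted with featureCounts of the Subread package; the annotation release and strand setting were not given in the sources used here. The labels name a SMART-Seq v4 and Nextera preparation, and the methods a TruSeq poly(A) kit. The table deposited by the authors holds raw counts per gene and FPKM, for which the authors divided counts by transcript length and library size. The library size implied by these FPKM was 47.7 to 164 mega-counts, above the gene-count total of each library. FPKM and the CPM used here therefore do not share a library size. Counting of reads shared by near-identical or overlapping genes is not stated.

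Columns were mapped to libraries by label. All 43346 genes were fitted in DESeq2 1.42.0 (R 4.3.3) over the 4 groups, with counts as deposited, median-of-ratios size factors and Benjamini-Hochberg adjustment over all genes tested; calls needed an adjusted p of at most 0.05 and a log2 fold change of at least 0.5 in size. edgeR 4.0.16 (quasi-likelihood, TMM) and limma 3.58.1 on log2(FPKM + 0.1) and log2(FPKM + 1) were alternatives, as were other filters, size factors and leaving out each library. Intervals are 95% Wald intervals. A lower bound of a fold divides the mean normalized count by the floor, 3 counts over the smallest size factor among the control libraries. The scripts were tested on simulated data. Total counts per library were 20.9 to 71.0 mega-counts. Intervals give the uncertainty of a difference of group means, with the spread between libraries as fitted, and do not span the values of single libraries.

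All members are accounted for. Values in every library, in FPKM or, near the floor, in counts, are given for the 12 alveolar and monocyte-derived members, for Lyz2, Csf1r, Adgre1, Ctss and Apoe, and, in each other role, for the 2 members with the largest change in each age restricted to members averaging 50 or more normalized counts. Values of Mertk in every library and of Fcgr1, Laptm5, Fcer1g, Ctsd and Ctsk in some groups were added after they were seen, as were those of Itgam in aged mice, and other members are given as ranges or counts. Members, lists and tests were chosen with earlier results of these data known. Promoter windows came from RefSeq (GRCm38.p6).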

Additional observations from a re-analysis of the deposited data

Results flagged for a closer look

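Within groups of 4 or 5 libraries, 102 sets of values were checked for a library far from the others (log2(normalized count + 1) of members with a mean of at least 50, and log2 of the 2 summed FPKM levels), and 10 stood out, where chance gives about 1 in 20. In Young Bleo, library 20 was low for Tyrobp (230 normalized counts, the others 1033 to 1236) and for Fcgr3 (98.9, the others 584 to 612), and library 17 was high for Ly86 (94.4, the others 23.2 to 29.1). In Young Sham, library 25 was low for Lyz2 (2724 normalized counts, the others 4398 to 4799), library 24 was at 0 for Mrc1 (the others 77.4 to 217), and library 23 was at 0 for Itgax (the others 10.7 to 26.4). The remaining cases were Young Sham values near the floor, with the other 4 libraries at 0 or under 1 normalized count: library 24 had 2.34 for Ms4a7 and 9.36 for Wfdc17, library 23 had 4.10 for Siglec1, and library 22 had 2.47 for Havcr2. For these values near the floor the rate of 1 in 20 need not hold. Aged Sham, with 3 libraries, is too small for this check.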

How the results depend on the processing

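No paired analysis was possible because the library numbers do not repeat between groups. The counts of called members moved as follows, and the cause was not tested except where fewer libraries were fitted. In Young Bleo against Young Sham (26 called) limma on log2(FPKM + 1) gave 14, the fit without Young Bleo 17 and 18 gave 15, and leaving out 1 library gave 23 to 27. In Aged Bleo against Aged Sham (21) edgeR gave 10 and, with no filter, 11, limma on log2(FPKM + 1) gave 11, the fit without Aged Bleo 1 and 2 gave 3 (Ctss, Havcr2 and Lgals3), and leaving out 1 library gave 14 to 24. In Aged Bleo against Young Sham (31) the fit without Aged Bleo 1 and 2 gave 19, and leaving out 1 library gave 29 to 33. In Aged Sham against Young Sham (7) edgeR with and without its filter and both limma fits gave 0, the fit without Aged Bleo 1 and 2 gave 12, and leaving out 1 library gave 1 to 7. In Aged Bleo against Young Bleo (1) both edgeR and both limma fits gave 0, the groups fitted alone gave 3, and leaving out 1 library gave 0 to 2. For the difference of the responses (0) the fit without Aged Bleo 1 and 2 gave 3, that without Young Bleo 17 and 18 gave 1, and leaving out 1 library gave 0 to 1. The 2 fits that left out a pair of libraries were chosen after seeing the data.

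Over 99 log2 fold changes of single members and 1829 alternative values for them, 1584 kept direction and side of the threshold, 222 lost a call, 9 gained one and 14 changed sign, and no value that changed sign had been called. Without Aged Bleo 1 and 2 the aged response was -0.17 for Laptm5, 0.040 for Mertk, -2.33 for Adgre1, -1.04 for Fcer1g and -0.11 for Apoe, and Lyz2 in Aged Bleo against Young Bleo was -0.16. For Lyz2 the difference of the responses was 0.22 without Young Bleo 17 and 18 and -0.90 to 0.46 over fits without 1 library. Leaving out 1 library gave -0.078 to 1.17 for the aged response of Laptm5 and -0.20 to 0.92 for that of Fcer1g. The folds of the summed alveolar and monocyte-derived levels moved by less than the spread between libraries when computed in CPM. For Cd163, at 0 counts in 11 of 16 libraries, no difference was detectable at this depth.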
